A study of Saccharomyces cerevisiae with 17 samples.

Results

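The genes described here are 38 Saccharomyces cerevisiae genes of ergosterol synthesis, sterol esterification, fatty acid synthesis, desaturation and elongation, and acyl-CoA handling. They were listed by name and pathway role out of 5449 genes that could be tested, and each was read by 1 probe set. Of the 38 genes, 6 encode enzymes that use molecular oxygen as a substrate (ERG1, ERG11, ERG25, ERG3, ERG5 and OLE1) and 32 do not.

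Transcripts were measured on 17 Affymetrix arrays in CB11, a lager brewing yeast, during aerated propagation (growth of the yeast crop) and during beer fermentation in a brewery. Propagation ran in a 140 hL vessel at 20 °C on 17 °Plato wort, where the labels give 7 to 8 mg/L of dissolved oxygen, after growth in a smaller aerobic vessel, and 3 arrays (A, B and C) were run for each of its sampling times, 0, 8 and 30 h. Fermentation ran in a 3275 hL vessel filled with wort, also of 17 °Plato, oxygenated to 25 mg/L and pitched with yeast that had already been through earlier fermentations. It was sampled at 8 h (3 arrays), 30 h (2 arrays, B and C) and 60 h (3 arrays) after the last yeast had been added. The labels used here give no fermentation temperature. The replicates of each time were drawn from a single vessel. The p-values therefore measure only the spread among arrays within groups, pooled over all groups and both vessels, and not the spread between repeated runs. The effects of stage, vessel, yeast generation and oxygen supply cannot be told apart. All groups carry the same strain with no engineered allele. Lager yeasts are hybrids of S. cerevisiae and a related species, and the array does not separate the transcripts of the parental genomes.

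Yeast makes ergosterol, its main membrane sterol, from acetyl-CoA through mevalonate and squalene. Everything up to squalene can be made without oxygen, whereas the epoxidation of squalene, several later sterol steps and the introduction of the double bond into fatty acids use molecular oxygen directly. In brewing, wort is therefore oxygenated at the start, and the sterols and unsaturated fatty acids made early are shared out among daughter cells once oxygen has been used up. Cytosolic fatty acid synthesis, by contrast, needs acetyl-CoA carboxylase and fatty acid synthase but no oxygen.

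Values are log2 expression summaries, and each difference is one of group means on that scale, given with its standard error (SE) from a linear model over all 17 arrays. A gene was called higher or lower at a limma p below 0.05 after adjustment over the 5449 genes. Propagation 8 h and 30 h (6 arrays) formed a cluster of their own: over all genes, correlations ran from 0.882 to 0.959 inside the cluster and from 0.369 to 0.563 between it and the other 11 arrays. Their hybridization controls read 12.16 to 12.85, against 4.83 to 10.69 elsewhere. The median of 13 meiosis and sporulation genes read 6.94 to 8.04 on them against 4.17 to 5.88, and that of 10 haploid mating genes 7.41 to 8.46 against 5.17 to 6.14. The control transcripts' 3-prime signal exceeded their 5-prime signal by 4.39 in replicate A and 2.49 in replicate C of propagation 0 h, by 3.10 and 3.44 in replicate A of fermentation 8 h and 60 h, and by 1.03 to 1.65 elsewhere. Replicates B and C of fermentation 8 h differed by very little (SD of the difference over genes 0.123). The part of these features in the results below was not tested.

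Every one of the 38 genes read above the 95th percentile of probe sets for another species on all 17 arrays. On propagation 8 h and 30 h some cleared it narrowly. ERG27 read 5.66 on propagation 8 h C, where that percentile was 5.63, and ARE1 read 5.41 on propagation 8 h B, where it was 5.30. Differences that rest on such low values are uncertain in size. The median of the 38 genes was 10.80 to 11.28 on 10 of the 11 arrays outside propagation 8 h and 30 h, 8.97 on propagation 0 h A, and 8.08 to 8.63 on the propagation 8 h and 30 h arrays. Propagation 0 h A lay below both B and C for 37 of the 38 genes, including all 6 oxygen-requiring steps, against 53.0% of all genes. The median gap to the mean of B and C was -1.52 for the 38 genes, -2.58 for the oxygen-requiring steps and -0.23 for all genes. Since this array alone moves many values, counts against propagation 0 h and the differences named there are given with and without it. Without it, propagation 0 h rests on B and C, which have unusual controls of their own. Array B had the lowest hybridization controls (4.83), and C a 3-prime to 5-prime gap of 2.49. Same-letter arrays of propagation 0 h, fermentation 8 h and fermentation 60 h deviated together, so calls among these groups that change with the letter as a block are given as blocked p-values. The labels name no pairing between these groups, and the block was taken from these same values.

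**Figure D1:**
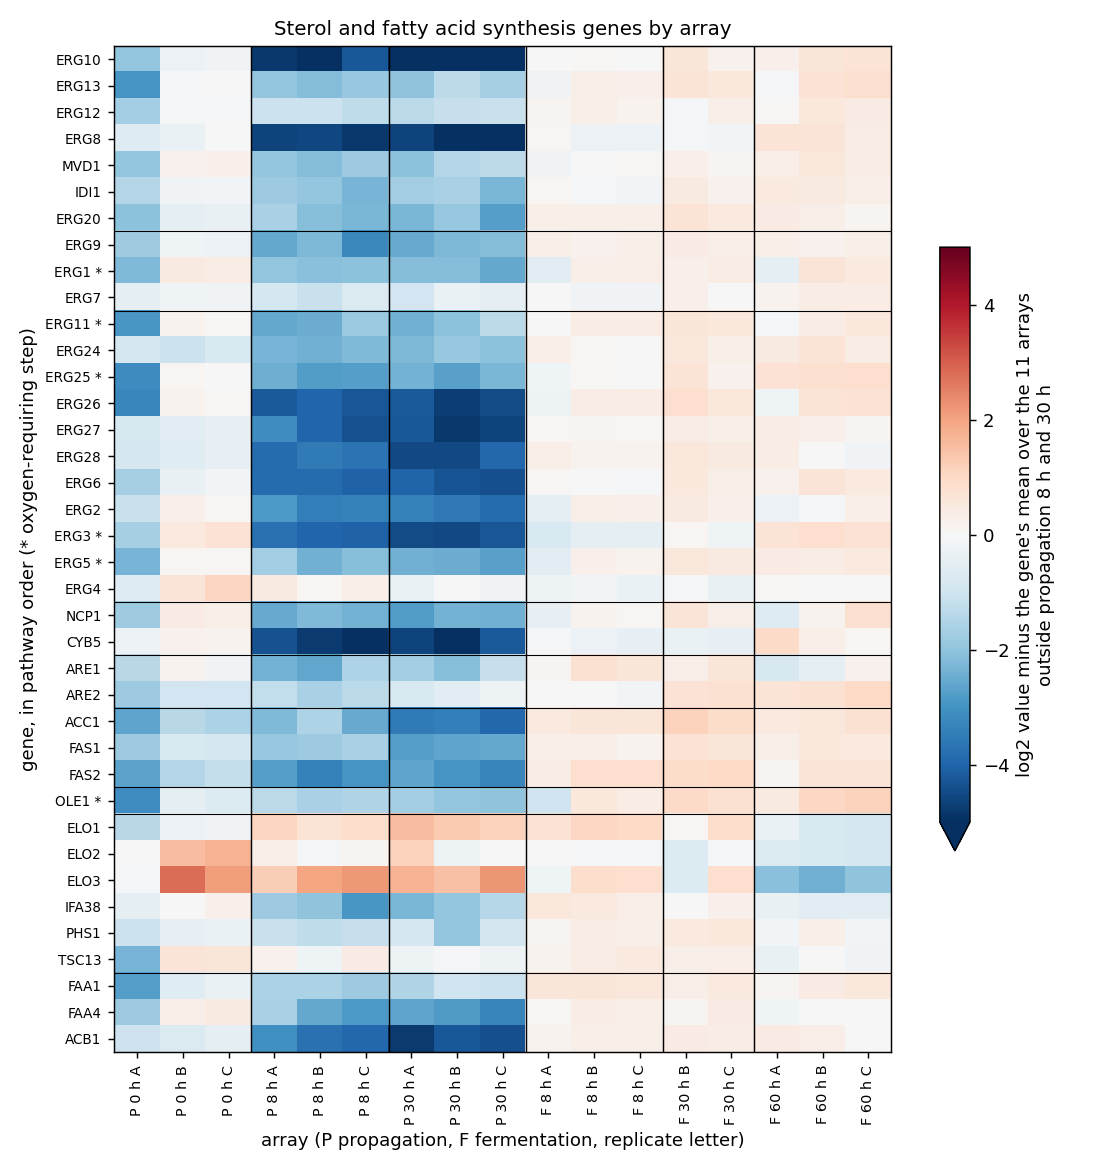
Heat map of the 38 genes (rows, in pathway order, oxygen-requiring steps starred) on the 17 arrays (columns), coloured by the log2 value minus the gene's own mean over the 11 arrays that are not propagation 8 h or 30 h, with differences below -5 drawn in the darkest blue. Most sterol genes are darkest on the propagation 8 h and 30 h arrays, propagation 0 h A is mostly paler than these but below B and C, and ELO3 runs opposite, with its lowest values at fermentation 60 h.

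All 3 genes of cytosolic fatty acid synthesis were higher at fermentation 8 h and 60 h than in the propagation inoculum (propagation 0 h). Here and below, the inoculum means propagation 0 h. The yeast pitched into the fermentation is not among the arrays. ACC1, which encodes acetyl-CoA carboxylase, the enzyme that commits acetyl-CoA to fatty acids, read 9.01, 10.26 and 10.04 on propagation 0 h A, B and C. In fermentation it read 12.11, 12.24 and 12.25 at 8 h, 12.80 and 12.54 at 30 h, and 12.13, 12.18 and 12.41 at 60 h. Every fermentation array lay above every propagation 0 h array, and the 3 fermentation times lay close together. ACC1 was higher at fermentation 8 h than at propagation 0 h by 2.43 (SE 0.30, 5.38-fold, adjusted p = 2.28e-05) and by 2.05 without propagation 0 h A.

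FAS2, the alpha subunit of fatty acid synthase, read 7.82, 9.06 and 9.33 at propagation 0 h, 10.89, 11.36 and 11.34 at fermentation 8 h, and 10.64, 11.15 and 11.15 at fermentation 60 h. FAS1, the beta subunit, read 10.23, 11.28 and 11.21 at propagation 0 h, 12.35, 12.36 and 12.22 at fermentation 8 h, and 12.36, 12.58 and 12.54 at fermentation 60 h. For both subunits the fermentation arrays were all above the inoculum arrays. The difference at fermentation 8 h was 2.46 for FAS2 (SE 0.33, 5.51-fold, adjusted p = 4.49e-05) and 1.40 for FAS1 (SE 0.24, 2.65-fold, adjusted p = 0.000433), and 2.00 and 1.07 without propagation 0 h A. ACC1, FAS1 and FAS2 kept these calls at fermentation 8 h and 60 h in all 29 alternative settings.

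ACB1, the acyl-CoA binding protein, was also higher at fermentation 8 h, by 1.01 (SE 0.25, adjusted p = 0.00577) and by 0.87 without propagation 0 h A, and it too kept the call in all 29 settings. FAA1 and FAA4 encode the paired acyl-CoA synthetases that activate imported fatty acids. FAA1 read 8.11, 10.28 and 10.54 at propagation 0 h, 11.46, 11.49 and 11.44 at fermentation 8 h, and 11.02, 11.30 and 11.39 at fermentation 60 h. FAA4 read 8.13, 10.27 and 10.38 at propagation 0 h, 9.97, 10.29 and 10.24 at fermentation 8 h, and 9.71, 9.90 and 9.91 at fermentation 60 h. The pair therefore differed in pattern: FAA1 lay above all inoculum arrays in fermentation, while FAA4 overlapped with the inoculum. The FAA1 difference at fermentation 8 h was 1.82 (SE 0.43, adjusted p = 0.00427) and 1.05 without propagation 0 h A, and FAA4 was not called in either fit.

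The 3 elongases moved in different directions. ELO1 extends medium-chain fatty acids, whereas ELO2 and ELO3 make the very-long-chain fatty acids that go into sphingolipids. ELO3 read 8.48, 11.33 and 10.59 at propagation 0 h, 8.29, 9.41 and 9.38 at fermentation 8 h, 7.83 and 9.37 at fermentation 30 h, and 6.43, 6.10 and 6.51 at fermentation 60 h. The fermentation 60 h arrays lay below every other array of the series for this gene, while the earlier fermentation arrays overlapped with propagation 0 h A. From fermentation 8 h to 60 h ELO3 fell by 2.68 (SE 0.56, 6.39-fold, adjusted p = 0.00417). Against propagation 0 h the difference at 60 h was -3.78 (SE 0.56, 13.8-fold lower, adjusted p = 6.71e-05), and -4.61 without propagation 0 h A.

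ELO1 read 8.63, 9.70 and 9.85 at propagation 0 h, 10.74, 11.05 and 11.02 at fermentation 8 h, 10.12 and 10.89 at fermentation 30 h, and 9.66, 9.24 and 9.17 at fermentation 60 h. It was thus high early in fermentation, and its 60 h values overlapped with those of the inoculum. ELO1 was higher at fermentation 8 h than at propagation 0 h by 1.54 (SE 0.30, 2.91-fold, adjusted p = 0.00106), by 1.16 without propagation 0 h A, and fell from fermentation 8 h to 60 h by 1.58 (SE 0.30, 2.99-fold, adjusted p = 0.00184).

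ELO2 read 7.69, 9.27 and 9.45 at propagation 0 h, 7.68, 7.67 and 7.66 at fermentation 8 h, 7.04 and 7.64 at fermentation 30 h, and 6.98, 6.94 and 6.86 at fermentation 60 h. Its fermentation values lay below propagation 0 h B and C at every time, and array A of that group read like fermentation 8 h. The difference at fermentation 60 h was -1.88 (SE 0.40, 3.68-fold lower, adjusted p = 0.00139), and -2.44 without propagation 0 h A. The remaining enzymes of the elongation cycle are the reductases IFA38 and TSC13 and the dehydratase PHS1. IFA38 fell between fermentation 8 h and 60 h by 0.96 (SE 0.29, adjusted p = 0.0335), a call lost in 7 of 29 settings, and TSC13 and PHS1 were not called there.

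**Figure D2:**
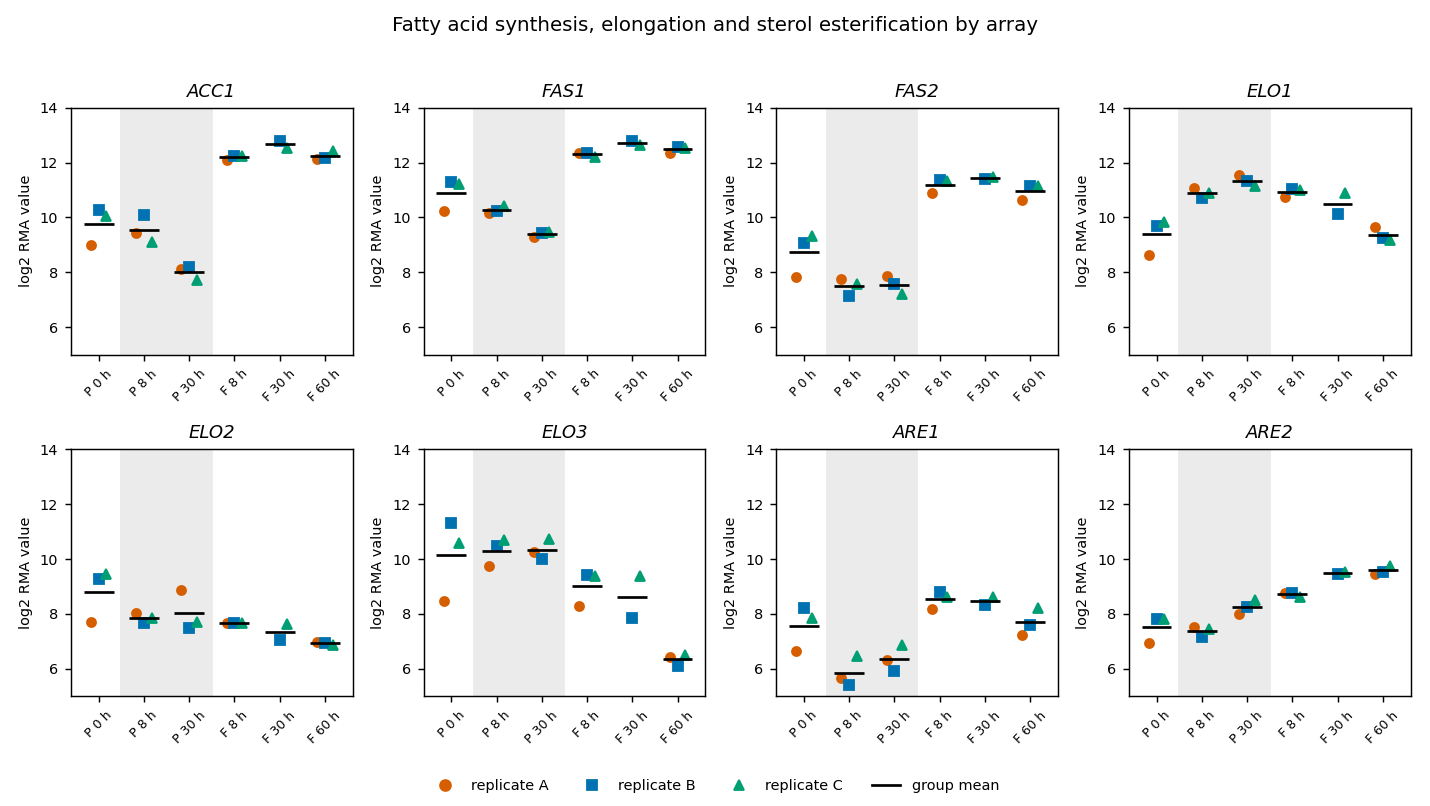
Log2 value per array (points, shaped by replicate letter) and group mean (bar) of ACC1, FAS1, FAS2, the 3 elongases, ARE1 and ARE2 at each stage and time, with propagation 8 h and 30 h shaded. ACC1, FAS1 and FAS2 sit higher on every fermentation array than at propagation 0 h, ELO1 is lowest in fermentation at 60 h, and ELO3 drops to 6.10 to 6.51 at fermentation 60 h.

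OLE1 encodes the essential fatty acid desaturase of yeast, which uses oxygen to introduce the double bond. It read 8.90, 11.58 and 11.32 at propagation 0 h, 11.04, 12.54 and 12.40 at fermentation 8 h, 12.96 and 12.76 at fermentation 30 h, and 12.45, 13.05 and 13.15 at fermentation 60 h. The 30 h and 60 h fermentation arrays were all above the inoculum, whereas fermentation 8 h A lay below propagation 0 h B and C. At fermentation 60 h OLE1 was higher than at propagation 0 h by 2.28 (SE 0.52, 4.87-fold, adjusted p = 0.00236), by 1.44 without propagation 0 h A, and the call held in all 29 settings. The difference of 1.39 at fermentation 8 h against propagation 0 h did not pass (adjusted p = 0.0561) and was 0.55 (adjusted p = 0.231) without propagation 0 h A, but it passed with the letter as a block (adjusted p = 0.022). It also passed without fermentation 8 h A (1.87), propagation 0 h B (1.88) or propagation 0 h C (1.75). Leaving out propagation 0 h B or C gives array A, the lowest of that group, more weight in its mean. From fermentation 8 h to 60 h the difference of 0.89 missed the threshold with all arrays (adjusted p = 0.282), and leaving out propagation 0 h A brought its adjusted p to 0.0385.

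ERG1, the squalene epoxidase, read 8.29, 10.95 and 10.87 at propagation 0 h, 9.94, 10.78 and 10.82 at fermentation 8 h, 10.77 and 10.89 at 30 h, and 10.07, 11.17 and 10.99 at 60 h. ERG11, the lanosterol demethylase targeted by azole drugs, read 9.54, 12.61 and 12.47 at propagation 0 h, 12.43, 12.81 and 12.82 at fermentation 8 h, 13.05 and 12.96 at 30 h, and 12.32, 12.80 and 12.95 at 60 h. In both genes array A was the lowest of its group at propagation 0 h, fermentation 8 h and fermentation 60 h, and the B and C arrays of these times lay close together. With all arrays neither gene was called between fermentation times or between fermentation and propagation 0 h. ERG11 became higher in fermentation than at propagation 0 h without array B of the inoculum (1.68 at 8 h and at 60 h) and, at 60 h, without array C (1.62), and without array A its difference was 0.15 at both times. Leaving out array B or C again gives array A more weight in the propagation 0 h mean.

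ERG25, the sterol C-4 methyl oxidase, read 9.11, 12.37 and 12.25 at propagation 0 h, 12.04, 12.31 and 12.25 at fermentation 8 h, 12.94 and 12.48 at 30 h, and 13.00, 13.07 and 13.12 at 60 h. The 60 h arrays were above all others, by a margin that is small beside the gap of propagation 0 h A to its group. ERG25 was higher at fermentation 60 h than at propagation 0 h by 1.82 (SE 0.56, adjusted p = 0.016), and by 0.75 (adjusted p = 0.00765) without propagation 0 h A. Its difference of 0.87 between fermentation 8 h and 60 h did not pass with all arrays (adjusted p = 0.34) but passed without propagation 0 h A (adjusted p = 0.00301) with the SE falling from 0.56 to 0.21.

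ERG3, the sterol C-5 desaturase, read 9.21, 11.36 and 11.59 at propagation 0 h, 10.12, 10.44 and 10.44 at fermentation 8 h, 10.99 and 10.68 at 30 h, and 11.55, 11.70 and 11.59 at 60 h. It stood at its lowest fermentation level at 8 h and at its highest at 60 h, without overlap between these times. Of the 6 oxygen-requiring steps it alone passed from fermentation 8 h to 60 h, where it rose by 1.28 (SE 0.42, 2.43-fold, adjusted p = 0.0459). This call lies close to the threshold and was lost in 17 of 29 settings, with log2 differences of 1.18 to 1.34 throughout. With the letter as a block its adjusted p was 0.0767, and it was also lost when any single fermentation array was left out. Between propagation 0 h and fermentation 8 h the difference was -0.39 (adjusted p = 0.543) with all arrays and -1.14 (adjusted p = 0.000272) without propagation 0 h A.

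ERG5, the sterol C-22 desaturase, read 8.99, 11.44 and 11.41 at propagation 0 h, 10.78, 11.57 and 11.52 at fermentation 8 h, 11.90 and 11.78 at 30 h, and 11.74, 11.71 and 11.82 at 60 h. Its fermentation values from 30 h on were all above those at 8 h. The differences of 0.47 from fermentation 8 h to 60 h (adjusted p = 0.563) and of 1.15 from propagation 0 h to fermentation 60 h (adjusted p = 0.057) did not pass. The latter was 0.33 without propagation 0 h A, and it passed without array B (1.56) or C (1.54) of that group. Both of the fits that passed give array A more weight in the propagation 0 h mean.

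**Figure D3:**
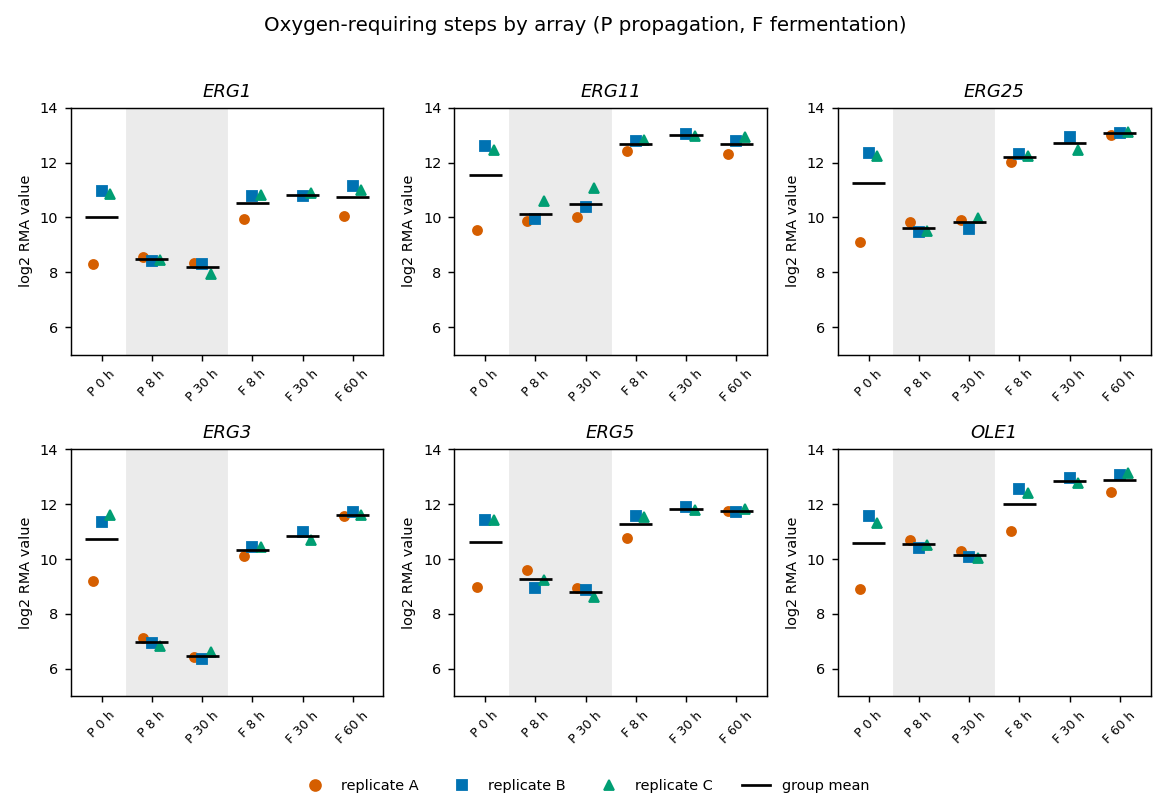
Log2 value on each array (points, shaped by replicate letter) and group mean (bar) of the 6 oxygen-requiring steps by stage and time, with propagation 8 h and 30 h shaded. Replicate A lies far below B and C at propagation 0 h in all 6 panels, and the shaded arrays are lower than the fermentation arrays.

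The oxygen-requiring steps were then set against the other 32 genes within each array, by the mean log2 value of the 6 minus that of the 32. This difference was 0.06, 1.40 and 1.29 on propagation 0 h A, B and C, 0.87, 0.78 and 0.98 at propagation 8 h, and 0.82, 0.79 and 0.86 at propagation 30 h. In fermentation it was 0.52, 1.05 and 1.07 at 8 h, 1.33 and 1.13 at 30 h, and 1.40, 1.64 and 1.67 at 60 h. The 60 h arrays stood above the other fermentation arrays, replicate A was the lowest of its group at propagation 0 h, fermentation 8 h and fermentation 60 h, the 3 arrays with the widest 3-prime to 5-prime gap, and propagation 0 h A fell outside the range of all others. The group mean went from 0.88 (SD 0.31, n = 3) at fermentation 8 h to 1.57 (SD 0.15, n = 3) at 60 h, a difference of 0.69, and of 0.59 without the 3 arrays of lowest 5-prime signal. Against propagation 0 h, the difference at fermentation 60 h was 0.65 with all arrays and 0.22 without propagation 0 h A. No p is given, since the score is a mean over chosen genes.

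**Figure D4:**
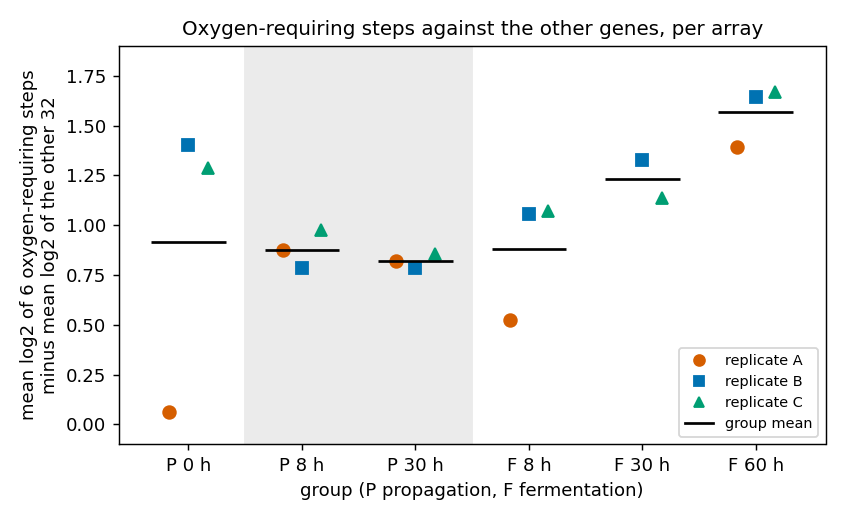
Mean log2 value of the 6 oxygen-requiring steps minus that of the other 32 genes (vertical axis, log2 units) for each array (points, shaped by replicate letter) with the group mean (bar), by stage and time. The fermentation 60 h arrays read 1.40 to 1.67, and propagation 0 h A reads 0.06.

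Among the sterol synthesis genes without an oxygen requirement, several were higher than in the inoculum with and without propagation 0 h A. They were ERG20, ERG24 and ERG28 at fermentation 8 h, and these with ERG6, ERG8, ERG10, ERG27 and IDI1 at 60 h. ERG24, the sterol C-14 reductase, was the only one of these to keep its calls at both times in all 29 settings. It read 9.69, 9.51 and 9.84 at propagation 0 h, 10.90, 10.66 and 10.60 at fermentation 8 h, 11.14 and 10.88 at 30 h, and 11.03, 11.26 and 10.95 at 60 h. Here propagation 0 h A lay between B and C, and all fermentation arrays were above the inoculum. ERG24 was higher at fermentation 8 h by 1.04 (SE 0.20, 2.06-fold, adjusted p = 0.000941) and at 60 h by 1.40 (SE 0.20, 2.63-fold, adjusted p = 4.36e-05), and both calls held in all 29 settings. Without propagation 0 h A the differences were 1.05 and 1.40.

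ERG26, the C-3 dehydrogenase that follows ERG25, had the widest range of group means among the late sterol genes without an oxygen requirement over the groups outside propagation 8 h and 30 h, with 7.64, 11.07 and 10.94 at propagation 0 h, 10.64, 11.25 and 11.28 at fermentation 8 h, 11.72 and 11.45 at 30 h, and 10.68, 11.58 and 11.61 at 60 h. Propagation 0 h A was the lowest of these arrays, and its gap to the mean of B and C (-3.36) was the widest among the 38 genes. It was not called between fermentation times or against propagation 0 h. ERG4, the last reductase of the pathway, read 8.94, 10.24 and 10.67 at propagation 0 h and 9.34, 9.44 and 9.28 at fermentation 8 h. Its difference there of -0.60 became -1.10 (adjusted p = 0.000458) without propagation 0 h A.

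In the mevalonate branch, ERG13 (HMG-CoA synthase) had the widest range of group means over the same 4 groups, reading 8.83, 11.69 and 11.83 at propagation 0 h, 11.61, 12.10 and 12.06 at fermentation 8 h, 12.50 and 12.31 at 30 h, and 11.69, 12.52 and 12.61 at 60 h. Replicate A of fermentation 8 h and of 60 h did not exceed array C of the inoculum. Its difference of 1.49 between fermentation 60 h and propagation 0 h was called with all arrays and became 0.51 (adjusted p = 0.132) without propagation 0 h A. ERG20, farnesyl diphosphate synthase, was higher at fermentation 8 h by 1.26 (SE 0.35, adjusted p = 0.014), and by 0.72 (adjusted p = 0.0319) without propagation 0 h A. Within fermentation, ERG8 (phosphomevalonate kinase) rose from 8 h to 60 h by 0.72 (SE 0.23, adjusted p = 0.0444), which was lost in 14 of 29 settings, the letter as a block among them (adjusted p = 0.0688).

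The squalene synthase ERG9 read 10.19, 11.76 and 11.71 at propagation 0 h, 12.27, 12.22 and 12.26 at fermentation 8 h, 12.39 and 12.26 at 30 h, and 12.30, 12.22 and 12.28 at 60 h. The electron donor NCP1, which reduces the cytochrome P450 enzymes ERG11 and ERG5, read 9.05, 11.26 and 11.11 at propagation 0 h, 10.41, 11.01 and 10.87 at fermentation 8 h, 11.49 and 11.14 at 30 h, and 10.18, 11.01 and 11.62 at 60 h. CYB5, cytochrome b5, an electron donor of several sterol steps, read 10.90, 11.43 and 11.40 at propagation 0 h, 11.16, 10.92 and 10.79 at fermentation 8 h, 10.89 and 10.79 at 30 h, and 12.18, 11.55 and 11.31 at 60 h. ERG9 lay above all inoculum arrays in fermentation, whereas the electron donors overlapped with them. ERG9 was higher at fermentation 8 h by 1.03 (adjusted p = 0.0305), a call lost without propagation 0 h A (0.52) and with the letter as a block (adjusted p = 0.0545). Neither electron donor was called against propagation 0 h or between fermentation times.

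ARE1 and ARE2 encode the sterol acyltransferases that store sterols as steryl esters. ARE2 read 6.93, 7.80 and 7.80 at propagation 0 h, 8.76, 8.75 and 8.63 at fermentation 8 h, 9.47 and 9.53 at 30 h, and 9.47, 9.54 and 9.74 at 60 h. ARE1 read 6.64, 8.21 and 7.85 at propagation 0 h, 8.16, 8.81 and 8.62 at fermentation 8 h, 8.32 and 8.62 at 30 h, and 7.24, 7.59 and 8.23 at 60 h. ARE2 had no overlap between propagation 0 h, fermentation 8 h and fermentation 60 h, while ARE1 at 60 h overlapped with both. ARE2 rose within fermentation by 0.87 (SE 0.24, 1.82-fold, adjusted p = 0.0229), lost in 5 of 29 settings. Against propagation 0 h it was higher by 1.20 at fermentation 8 h (SE 0.24, adjusted p = 0.00149) and by 2.07 at 60 h (SE 0.24, 4.20-fold, adjusted p = 7.59e-06), with both calls held in all 29 settings, and by 0.92 and 1.78 without propagation 0 h A. ARE1 was not called in these contrasts, except at fermentation 8 h against propagation 0 h with the letter as a block (0.96, adjusted p = 0.0291).

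Counted over the whole set, 12 of the 38 genes were higher and 1 (ELO2) lower at fermentation 8 h than at propagation 0 h, where 16.5% of all genes were higher and 11.5% lower. None of the 6 oxygen-requiring steps was among them. The median difference was 0.84 for the 38 genes and 0.10 for all genes, so 0.73 relative to all genes. Without propagation 0 h A, 10 genes were higher and 4 lower (ELO2, ELO3, ERG3 and ERG4), the median of the 38 genes was 0.20, and that of the oxygen-requiring steps was -0.12. The shares and the median of all genes given here are from the fit with all arrays, so these counts lack a background of their own. With the letter as a block, 14 were higher and 0 lower, ELO2 narrowly missing the threshold (adjusted p = 0.0501) and ERG27 passing it (0.69, adjusted p = 0.0258).

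At fermentation 60 h, 20 of the 38 genes were higher than at propagation 0 h and 2 lower (ELO2 and ELO3), against 25.3% and 15.7% of all genes. Those higher included 2 oxygen-requiring steps, OLE1 and ERG25, 6 of the 7 mevalonate genes and all 3 of ACC1, FAS1 and FAS2. The median was 0.94 for the 38 genes and 0.18 for all genes. Without propagation 0 h A, 16 were higher and 4 lower (ELO2, ELO3, ERG4 and TSC13), and the median of the 38 genes was 0.46. Again, the shares and the median of all genes are from the fit with all arrays. The calls of ERG7, ERG9 and the mevalonate genes ERG12 and ERG13 were lost without propagation 0 h A. The block added PHS1 (0.62, adjusted p = 0.0343). Contrasts with propagation 0 h share its arrays and are not independent of each other.

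**Figure D5:**
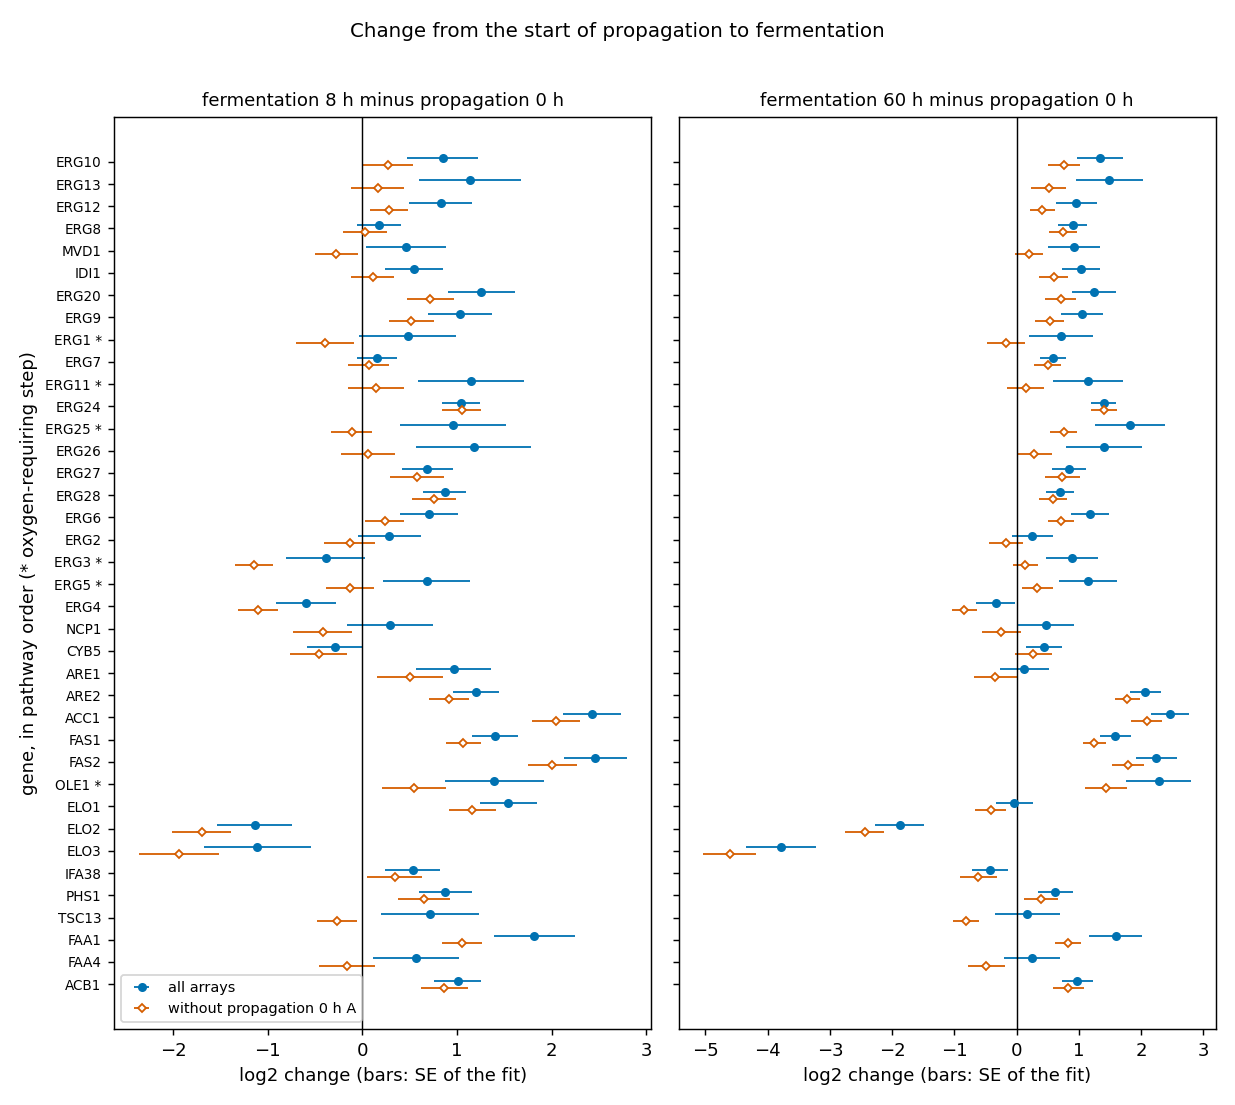
Log2 difference (horizontal axis) of each of the 38 genes from propagation 0 h to fermentation 8 h (left) and 60 h (right), with bars for the SE of the fit, for all arrays (filled circles) and without propagation 0 h A (open diamonds). At 8 h ACC1 (2.43) and FAS2 (2.46) lie furthest to the right, at 60 h ELO3 (-3.78) lies furthest to the left, and leaving out array A moves most oxygen-requiring steps (starred) towards 0.

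Within fermentation, no gene of the set, and 0% of all genes in either direction, was called between 8 h and 30 h. At an unadjusted p below 0.05, 1 of the 38 genes passed there, and limma with array weights called 2. From 8 h to 60 h, 3 genes rose (ERG3, ERG8 and ARE2) and 3 fell (ELO1, ELO3 and IFA38), against 9.21% and 6.64% of all genes. This count of 6 became 2 without any single one of fermentation 8 h B, 8 h C, 60 h B and 60 h C, 3 without 60 h A and 9 without propagation 0 h A. With the letter as a block it was 4 (ARE2 higher and the same 3 lower). In the fit with all arrays, the share of the 38 genes called is near that background in both directions. The median difference was 0.16 for the 38 genes, 0.67 for the oxygen-requiring steps, 0.09 for the other 32 and 0.08 for all genes. Between 30 h and 60 h none of the 38 genes was called, against 2.84% of all genes higher and 1.47% lower. There 4 passed an unadjusted p below 0.05, and ELO3 (-2.25, adjusted p = 0.0528) and ELO1 (-1.14, adjusted p = 0.0609) came closest after adjustment. Leaving out propagation 0 h B or fermentation 30 h B gave 1 call and leaving out propagation 0 h A gave 3.

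The arrays of propagation 8 h and 30 h, set apart as described, gave the largest differences. Their values also spread less over genes (SD 1.60 to 1.71, against 1.77 to 2.00 on the other arrays). Their medians over all probe sets were higher (5.41 to 5.46 against 4.99 to 5.37). The part of this narrower scale in the differences was not tested. Compared with propagation 8 h, 33 of the 38 genes were higher and 0 lower at fermentation 8 h, against 44.7% and 24.4% of all genes, with a median of 2.37 against 0.49 for all genes. At 30 h, 33 genes were higher and 2 lower (ELO1 by -0.84 and ELO3 by -1.73) in fermentation than in propagation, against 37.5% and 27.9% of all genes, with a median of 2.69 against 0.24. All 6 oxygen-requiring steps were higher at both times. They ranged from 1.46 for OLE1 to 3.37 for ERG3 at 8 h and from 2.52 for ERG11 to 4.37 for ERG3 at 30 h.

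The largest differences at 8 h were those of ERG10 (4.75, SE 0.37), CYB5 (4.54, SE 0.29), ERG8 (4.52, SE 0.23) and ERG26 (4.31, SE 0.61). At 30 h the largest were those of ERG10 (5.89, SE 0.42), which encodes acetoacetyl-CoA thiolase, ERG26 (5.15, SE 0.68), the keto reductase ERG27 (4.88, SE 0.30) and ERG8 (4.86, SE 0.26). ERG10 read 6.92, 6.31 and 6.33 at propagation 30 h and 12.61 and 12.21 at fermentation 30 h. Several of the low values lay near the 95th percentile of the other species' probe sets. On propagation 8 h C that percentile was 5.63, where CYB5 read 5.97 and ERG8 5.80. On propagation 30 h B it was 5.06, where ERG27 read 5.18 and ERG8 5.29. The sizes of these differences are therefore uncertain. ERG4, TSC13 and ELO2 were not called at either time. ELO1 and ELO3 were not called at 8 h (0.05 and -1.29). In the same contrasts 11 and 12 of the 13 meiosis and sporulation genes, and 9 and 10 of the 10 haploid mating genes, were lower in fermentation, with medians of -2.15, -2.44, -1.96 and -2.35.

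Within propagation, 27 of the 38 genes were lower and 1 (ELO1, 1.50) higher at 8 h than at 0 h, against 43.1% and 24.3% of all genes. With all arrays the largest of these differences were -4.83 for CYB5, -4.34 for ERG8, -3.89 for ERG10 and -3.76 for ERG3. Without propagation 0 h A, CYB5 was still the lowest of these (adjusted p = 2.39e-10), and ERG8, ERG10 and ERG3 became -4.49, -4.47 and -4.51. At 30 h, 25 were lower and 2 higher (ELO1 by 1.95 and ARE2 by 0.74) than at 0 h, against 38.7% and 28.6% of all genes. The lowest at 30 h were CYB5 (-4.67), ERG8 (-4.65), ERG10 (-4.64) and ERG3 (-4.26), which without propagation 0 h A became -4.84, -4.81, -5.22 and -5.01. The median was -1.41 at 8 h against -0.44 for all genes, and -1.38 at 30 h against -0.25. Without propagation 0 h A, 35 genes were lower at 8 h and 34 at 30 h, ELO1 was higher by 1.12 and 1.57, and ARE2 was no longer called at 30 h (0.45, adjusted p = 0.0567). The shares and medians of all genes given here are from the fit with all arrays.

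OLE1 read 10.68, 10.40 and 10.51 at propagation 8 h and 10.31, 10.06 and 10.02 at 30 h, within the spread of propagation 0 h. It was not called at either time with all arrays, but it was lower at both without propagation 0 h A (-0.92, adjusted p = 0.0226, and -1.32, adjusted p = 0.00216). ERG3 read 7.13, 6.93 and 6.83 at propagation 8 h and 6.43, 6.35 and 6.61 at 30 h, below all other arrays of the series. From propagation 8 h to 30 h, ACC1 fell by 1.53 (SE 0.30, adjusted p = 0.00685), ACB1 fell by 0.90 (adjusted p = 0.0446) and ARE2 rose by 0.89 (adjusted p = 0.0448), against 1.93% of all genes lower and 3.08% higher. ACC1 kept its call in all 27 alternatives run, and the calls of ACB1 and ARE2 were lost in 15 and 17. The count of 3 became 1 when any of 12 single arrays was left out, and 5 without propagation 0 h A. The 30 h minus 8 h change was also compared between the stages: 15 of 5449 genes differed and none of the 38 (5 at an unadjusted p below 0.05). ACC1 came closest, at 2.00 (SE 0.46, adjusted p = 0.0804).

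These counts depend on how the arrays are scaled, since the median of all genes was not 0. With each array recentred on its median gene, the shares of all genes higher and lower were 31.1% and 35.0% for propagation 8 h against 0 h, 1.23% and 2.62% for propagation 30 h against 8 h, 7.08% and 8.63% for fermentation 60 h against 8 h, 1.52% and 2.75% for fermentation 60 h against 30 h, 20.0% and 20.1% for fermentation 60 h against propagation 0 h, and 36.2% and 32.4% for fermentation against propagation at 8 h. Of the 38 genes, recentring left 0 higher and 4 lower from propagation 8 h to 30 h. Quantile normalization turned the direction of ERG7, the lanosterol synthase, in both fermentation against propagation contrasts (0.77 to -0.25 at 8 h and 0.71 to -0.36 at 30 h). It also turned ERG7 (-0.62 to 0.18) and FAS1 (-0.64 to 0.21) between propagation 0 h and 8 h.

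Genes around these pathways were counted from lists chosen by function. Of 11 HMG-CoA reductase and sterol regulator genes, 5 were higher and 0 lower at fermentation 8 h than at propagation 0 h, among them the reductases HMG2 (2.28, adjusted p = 0.000467) and HMG1 (1.79, adjusted p = 0.00863), which catalyse the step between ERG13 and ERG12. Against these counts, from the fit with all arrays, stand 16.5% of all genes higher and 11.5% lower. Without propagation 0 h A the list had 5 higher and 1 lower, with 1.65 for HMG2 and 1.02 for HMG1. From fermentation 8 h to 60 h, 2 of the 11 rose: DAP1 (1.21), a haem protein that supports ERG11, and the repressor of hypoxic genes ROX1 (0.85), where 9.21% of all genes rose. Of 4 regulators of unsaturated fatty acid synthesis, only MGA2, an activator of OLE1, was called from fermentation 8 h to 60 h, rising by 1.05 (adjusted p = 0.0181). With all arrays MGA2 was 2.85 above propagation 0 h at fermentation 60 h. It read 6.69 and 7.16 on propagation 0 h B and C, and 9.38, 9.53 and 9.37 at fermentation 60 h. In the separate fit without propagation 0 h A it was still called higher (adjusted p = 2.56e-07).

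Among 10 sphingolipid synthesis genes, whose products take up the very-long-chain fatty acids of ELO2 and ELO3, 4 fell from fermentation 8 h to 60 h and 0 rose, where 6.64% of all genes fell and 9.21% rose. They were the ceramide synthases LAC1 (-2.01, adjusted p = 5.77e-05) and LAG1 (-0.87), the hydroxylase SUR2 (-1.65) and LCB1 (-0.88), a subunit of serine palmitoyltransferase. Of 7 sterol uptake and steryl ester turnover genes, 1 rose over this interval, the steryl ester hydrolase YEH1 (1.98, adjusted p = 0.00585). Among 8 other acyl-CoA and storage lipid genes, the acetyl-CoA synthetase ACS1 (2.43, adjusted p = 5e-05) and FAA2 (1.51) rose and FAT1 (-0.74) fell. Of 8 mitochondrial fatty acid synthesis genes, PPT2 (0.77) rose and MCT1 (-0.83) fell. The last 3 lists are short, and 1 gene of 7 or 8 in a direction is near the share over all genes. The 2 of 8 acyl-CoA and storage lipid genes that rose are above the 9.21% of all genes, but they are too few to read as a result about that list.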

How the data were processed

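Per the submitters' processing notes, the authors' values come from RMA, a background correction, quantile normalization and median-polish summary of probes. The deposited values are on the log2 scale and were used as they stand. Which arrays were normalized together is not given in the sources used here, and no probe intensities were analysed. Where several probe sets read one gene (47 genes), the brightest was taken. In R 4.3.3, lmFit and eBayes of limma 3.58.1 estimated group means from the 17 arrays together, with two-sided contrasts and Benjamini-Hochberg adjustment across 5449 genes. The number of arrays limits the precision. The script was tested on simulated data.

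The genes and lists were chosen with earlier results of these data known. Array values are given for the oxygen-requiring steps, paralogues and the most variable gene of each role, and in each contrast up to 4 rises and 4 falls that passed without overlap; other genes named were chosen after their values were seen. Alternatives changed scaling, filtering, probe set choice, arrays fitted, weights, eBayes settings and blocks, averaged fermentation 8 h B and C, and left out arrays singly or the 3 of lowest 5-prime signal. Same-letter arrays' deviations from group means correlated over 0.1 in all 9 pairs among propagation 0 h, fermentation 8 h and 60 h (0.17 to 0.78), whose replicate A had the widest 3-prime to 5-prime gaps, and in 5 of 31 other pairs. The 9 pairs are not independent, since deviations within a group of 3 arrays sum to 0. The letters were taken as a block among those 3 groups only, from the data and not the labels, which name no pairing across vessels. Calls gained with this block therefore rest on a choice made from the same values. A fit with that block and a fit on the 11 arrays outside propagation 8 h and 30 h were added after seeing the data. Titles of fermentation 8 h and 30 h end in _2, whose meaning the labels do not give.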

Additional observations from a re-analysis of the deposited data

How the results depend on the processing

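Counts of the 38 genes called stayed within 1.5 times of the main count except as follows. From propagation 8 h to 30 h (3 genes) the count was 6 with quantile normalization, array weights or without the 3 arrays of lowest 5-prime signal, 1 with only the groups compared or with fermentation 8 h B and C averaged, and 1 to 5 when each array was left out, 5 being without propagation 0 h A. From fermentation 8 h to 30 h (0 genes) array weights gave 2. From fermentation 8 h to 60 h (6 genes) the groups alone gave 11, array weights 21 and averaging B and C 2, and leaving out single arrays gave 2 to 9: 3 without fermentation 60 h A, 2 without any of fermentation 60 h B, 60 h C, 8 h B and 8 h C, and 9 without propagation 0 h A. From fermentation 30 h to 60 h (0 genes) recentring gave 2, quantile normalization 1, the filter on the dimmest 25% 1, the groups alone 3, array weights 9, the replicate block 1, dropping the 3 arrays 3, and single arrays left out 0 to 3, with 3 without propagation 0 h A. Against propagation 0 h, the groups alone gave 8 and array weights 21 at fermentation 8 h (13 genes), and the groups alone gave 11 at 60 h (22 genes). The oxygen-requiring minus other difference between the stages at 30 h (0.41) was 0.23 with quantile normalization and 0.31 to 0.51 without fermentation 30 h B or C. The fit without propagation 8 h and 30 h, added after seeing the data, gave 12 higher and 0 lower at fermentation 8 h and 17 and 2 at 60 h against propagation 0 h, and 2 and 3 from fermentation 8 h to 60 h. Causes were not tested. The shares of all genes called under these settings are not given beside these counts, so the counts are not set against a background here. The replicate block over all arrays moved no other count by over 1.5 times. The block among propagation 0 h, fermentation 8 h and 60 h alone, also added later, gave counts of 4, 14 and 23 for fermentation 60 h against 8 h and for fermentation 8 h and 60 h against propagation 0 h, and changed no call among the 38 genes there besides those given above. For the 6 oxygen-requiring steps no direction of a called difference reversed. Detection calls were not analysed, so signal over background is known only from the probe sets of another species.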
